A study of Homo sapiens with 3 samples.

Results

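The enzymes that build and trim N-glycans were examined in AsPC-1 cells, a human pancreatic cancer cell line, with and without knockdown of the long non-coding RNA LINC00941. The members were fixed by name, as 42 gene symbols from the first sugar on dolichol to the outer sugars added in the Golgi. No measured value entered the rule, but the list was chosen with earlier results of these data known. Of these, 41 were among the 16463 genes of the deposited table. ST6GAL1, which caps antennae with sialic acid, was not among the listed genes, and its expression was not analysed here. In outline, MOGS, the glucosidase that removes the outermost glucose, rose 2-fold or more with both siRNAs, and B4GALT1, a Golgi galactosyltransferase, fell with both. FUT8, the core fucosyltransferase, passed 2-fold with si#2. The other 38 enzymes stayed under 2-fold with each siRNA.

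N-glycosylation attaches a branched sugar tree to asparagine side chains of proteins that enter the secretory pathway. The tree is assembled on the lipid dolichol, first on the cytosolic face of the endoplasmic reticulum (ER) and then in its lumen, and is moved as a block to the nascent protein by the oligosaccharyltransferase. ER glucosidases then remove its glucoses, and the glucose left on the tree is the tag by which calnexin and calreticulin hold an unfolded glycoprotein. Mannosidases trim the tree in the ER and the Golgi. Golgi transferases of the MGAT family then start the antennae, which are extended with galactose and sialic acid, while FUT8 adds fucose to the core. Epithelial cancer cells are known for altered branching and fucosylation of these trees.

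Total RNA was sequenced from 3 cultures, with 1 library each for cells given a control siRNA (siNC), the first siRNA to LINC00941 (si#1) or the second siRNA to LINC00941 (si#2). All cells were wild-type AsPC-1, transiently transfected with siRNA at 200 nM by Oligofectamine and collected 24 h later (day 1 in the labels). The libraries model 1 cell line after a short knockdown, and each holds a single culture. Read totals lay between 88690997 and 92510692. Because each group is a single library, no test between groups was possible and no p-value is given.

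Levels are given as the authors' TPM, a share of all transcripts per length that allows genes to be compared. Changes are given as log2 fold change against siNC, computed from quantile-normalized log2(read count + 1). A gene is said to have risen or fallen where it differed from siNC by at least 2-fold on that scale. The range in parentheses after a change is its counting interval, the 95% exact (Clopper-Pearson) interval for 2 read counts, shifted by the normalization. It covers counting error only, and neither the spread between cultures nor the error of the normalization. The siNC library serves as the control of si#1 and of si#2 alike, and the comparisons are not independent of each other.

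LINC00941 itself had 1551 reads in siNC against 214 (si#1) and 273 (si#2). Its log2 fold changes were -2.89 (-3.10 to -2.68) and -2.56 (-2.75 to -2.38). The libraries thus matched their labels as control or knockdown, but LINC00941 cannot tell the si#1 library from the si#2 library. Of 10 ductal or epithelial markers 9 were listed, among them KRT8, KRT18, KRT19 and EPCAM, and their summed level lay between 7430 and 11247 TPM. Among the less abundant of these markers MUC1 fell with both siRNAs (-1.73 and -1.55), SOX9 had -0.69 and -0.70, and KRT7 had 0.94 and 0.94. Of 5 leukocyte markers CD68 and LYZ were listed, with a sum of 22.5 to 29.4 TPM, and PTPRC was not listed. The 2 listed fibroblast markers summed to at most 0.126 TPM and the 1 listed endothelial marker stayed at or under 0.0479 TPM. No acinar or islet marker of 4 each was listed.

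The 41 enzymes together took 0.502% (siNC), 0.507% (si#1) and 0.474% (si#2) of the reads. Their summed level was 2706, 2600 and 2380 TPM in the same order, lower with both siRNAs. The median level of all listed genes was also lower with both, at 6.39, 5.65 and 5.36 TPM. That of the enzymes was 29.0, 32.3 and 27.5 TPM, higher with si#1 than in siNC. All 41 were well covered, with a mean count of at least 362 reads. The enzymes had a median change of 0.09 (si#1) and 0.04 (si#2) on the log2 scale, and all listed genes 0.03 and 0.02. The lower and upper quartiles of the enzymes were -0.26 and 0.28 with si#1 and -0.24 and 0.38 with si#2. With each siRNA 25 enzymes (61.0%) lay above 0 and 16 below 0, and over all listed genes 51.9% (si#1) and 51.5% (si#2) lay above 0. Under TMM, DESeq2 size factors or total count, and from log2(TPM + 1), the split with si#2 was 21 above and 20 below. The counting interval held 0 for 2 enzymes with si#1 and for 6 with si#2, so that most of the differences were larger than counting error. Whether they were larger than the spread between cultures cannot be told from single libraries.

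With si#1, 1 of 41 enzymes rose and 1 fell. Over all listed genes 5.22% rose and 6.8% fell with si#1. With si#2, 2 enzymes rose and 1 fell, against 5.49% and 7.17% of all listed genes. MOGS was the 1 enzyme that rose with both siRNAs, against 2.53% of all genes, and B4GALT1 was the 1 that fell with both, against 3.51%. Where the analysis was limited to 12106 genes averaging 100 reads or more, a set that holds all 41 enzymes, 5.56% changed with si#1 and 6.47% with si#2. The shares of the enzymes were 4.88% and 7.32%, near this background. Within 1.5-fold of siNC with both siRNAs were 34 of the 41 (82.9%), against 60.6% of all listed genes and 71.0% of those averaging 100 reads or more.

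**Figure D1:**
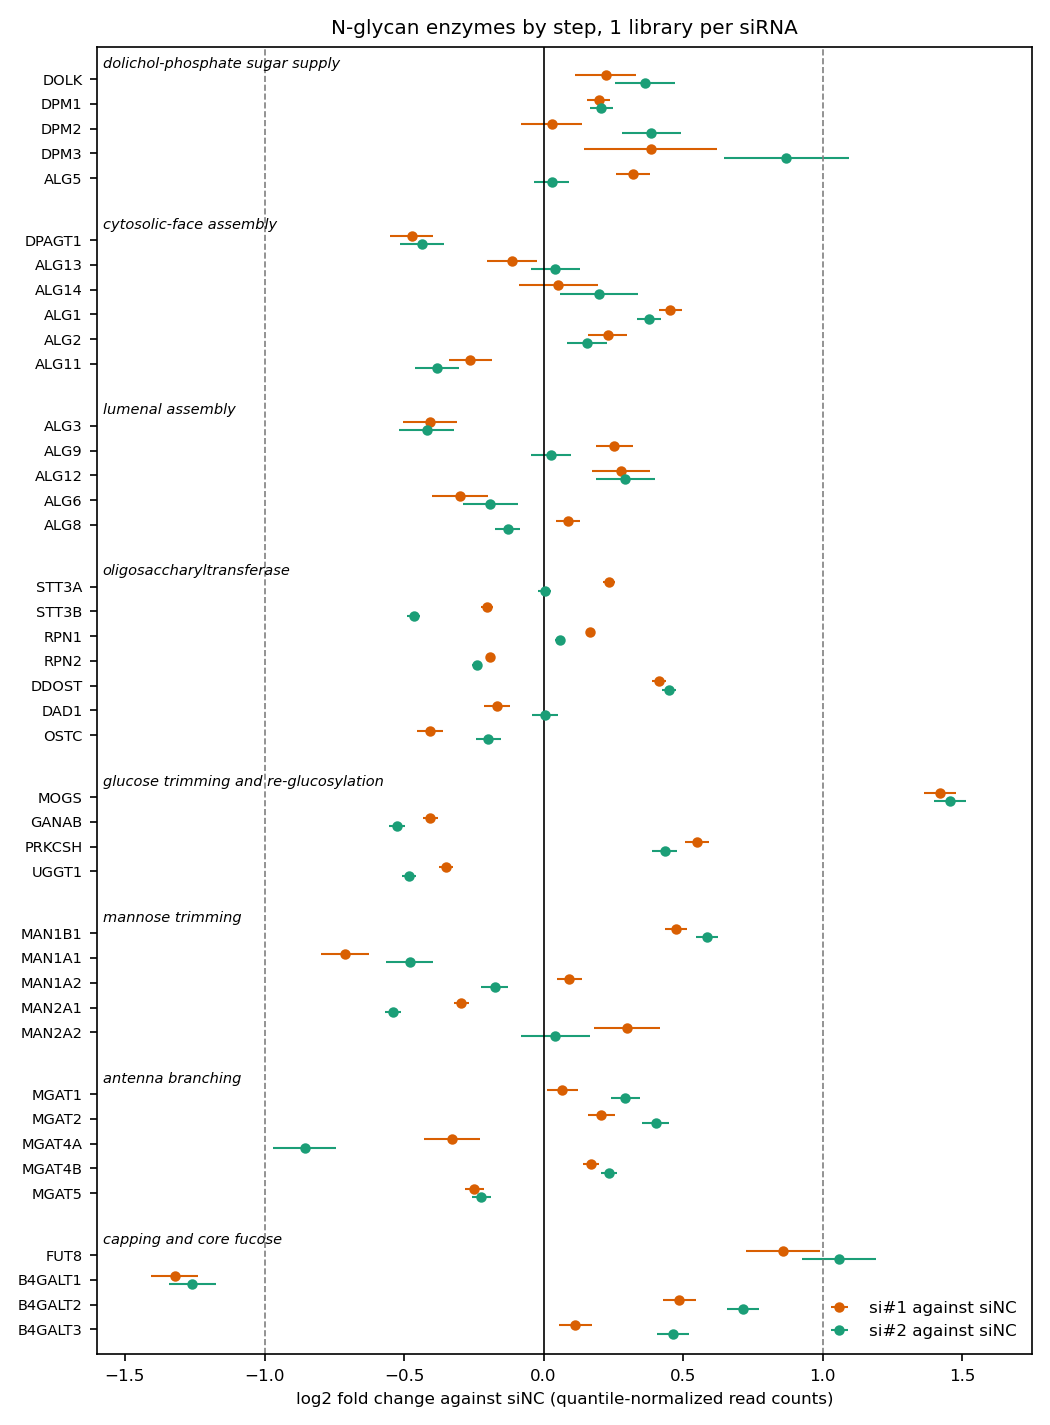
Log2 fold change of each of the 41 N-glycan enzymes against siNC (horizontal axis, quantile-normalized read counts), grouped by step, with si#1 in orange and si#2 in green. Points are single libraries, bars are 95% counting intervals and dashed lines mark 2-fold. MOGS lies at 1.42 and 1.46, B4GALT1 at -1.32 and -1.26, and FUT8 at 0.86 and 1.06.

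MOGS encodes glucosidase I, which removes the outermost glucose from the newly transferred tree. The gene lies on the minus strand of chromosome 2, at chr2:74461057-74465410 (GRCh38, GENCODE). It had 3439 reads in siNC against 9410 (si#1) and 9237 (si#2). Its level was 19.9 TPM in siNC against 48.6 TPM (si#1) and 46.1 TPM (si#2). Both siRNA libraries were high and lay close to each other. In RNA of a whole culture, a change in the number of cells that express a gene and a change in RNA per cell cannot be told apart. MOGS rose 2.68-fold with si#1, a log2 fold change of 1.42 (1.36 to 1.48), and 2.74-fold with si#2, a log2 fold change of 1.46 (1.40 to 1.51). The difference of si#1 minus si#2 was -0.04 (-0.08 to 0.01).

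Listed genes within 20000 bp of MOGS were set beside it, since a close or overlapping gene can share reads. WBP1, on the opposite strand, ends 166 bp away and had 1180, 1632 and 1443 reads in siNC, si#1 and si#2. The log2 fold changes of WBP1 were 0.42 and 0.29. INO80B, a subunit of a chromatin remodelling complex 3113 bp away on the opposite strand, had 721, 1507 and 1584 reads and rose with both siRNAs (log2 fold changes 1.01 and 1.13). INO80B-WBP1, the readthrough transcript of both genes, had log2 fold changes of 0.10 and -1.31, with 268 reads with si#2. Reads of exons shared by a readthrough transcript and its genes cannot be told apart. RTKN, MRPL53, CCDC142 and TTC31, further away, lay between 0.05 and 0.51.

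The glucosidase that acts after MOGS is glucosidase II, made of the catalytic subunit GANAB and the subunit PRKCSH, which retains it in the ER. GANAB had 25868 reads in siNC against 20287 (si#1) and 17720 (si#2), with a level of 110, 76.8 and 64.6 TPM. Its log2 fold changes were -0.41 (-0.43 to -0.38) and -0.53 (-0.55 to -0.50). PRKCSH had 7301, 10916 and 9610 reads, and log2 fold changes of 0.55 (0.51 to 0.59) and 0.43 (0.39 to 0.48). The catalytic subunit was thus low and its partner subunit high in both siRNA libraries, each under 2-fold. UGGT1 puts a glucose back on glycoproteins that have not folded, and its log2 fold changes were -0.35 and -0.48. Within 1 library the ratio of MOGS to GANAB was 0.181 in siNC against 0.632 (si#1) and 0.714 (si#2) in TPM. The ratio of PRKCSH to GANAB was 0.514, 0.972 and 0.978. Both ratios were higher in each siRNA library than in siNC, and they do not depend on the scaling between libraries.

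B4GALT1 is the main transferase that adds galactose to the N-acetylglucosamine of an antenna, and sialic acid is added onto that galactose. The gene lies on the minus strand of chromosome 9, at chr9:33104082-33167356. It had 3982 reads in siNC against 1633 (si#1) and 1641 (si#2). Its level was 15.7 TPM in siNC against 5.69 TPM (si#1) and 5.56 TPM (si#2). Both siRNA libraries were low, at nearly the same level. B4GALT1 fell by 1.32 on the log2 scale with si#1 (-1.41 to -1.24), 2.50-fold, and by 1.26 with si#2 (-1.34 to -1.18), 2.39-fold. The antisense gene B4GALT1-AS1 overlaps it on the opposite strand and had 183, 164 and 180 reads. The sources used here do not say whether the counting used the strand, so that reads of the overlap may have been assigned to either gene.

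B4GALT2 and B4GALT3 carry out the same reaction. B4GALT2 had 3882 reads in siNC against 5490 (si#1) and 6222 (si#2), and its log2 fold changes were 0.49 (0.43 to 0.55) and 0.71 (0.66 to 0.77). B4GALT3 had 4261, 4668 and 5703 reads, with log2 fold changes of 0.11 (0.05 to 0.17) and 0.46 (0.41 to 0.52). The summed level of the 3 genes was 79.0 TPM in siNC against 75.7 TPM (si#1) and 88.0 TPM (si#2). B4GALT1 made up 19.8% of this sum in siNC, 7.52% with si#1 and 6.32% with si#2. B4GALT2 made up 37.3%, 48.7% and 46.6%. The ratio of B4GALT1 to B4GALT2 in TPM was 0.532 in siNC against 0.155 (si#1) and 0.136 (si#2). The galactosyltransferase transcripts thus differed more in their makeup than in their sum.

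FUT8 is the only known human enzyme that adds fucose to the core of the N-glycan. The gene lies on the plus strand of chromosome 14, at chr14:65410592-65744121. It had 701 reads in siNC against 1306 (si#1) and 1463 (si#2). Its level was 2.68 TPM in siNC against 4.47 TPM (si#1) and 5.09 TPM (si#2). Both siRNA libraries were higher than siNC. Its log2 fold change reached 0.86 (0.72 to 0.99) with si#1, under the threshold, and 1.06 (0.93 to 1.19) with si#2, where FUT8 rose. The interval with si#2 held the threshold, and from quantile-normalized log2(TPM + 1) the change with si#2 was 0.94, under 2-fold. FUT8-AS1, an antisense gene that overlaps FUT8 on the opposite strand, had 3, 16 and 33 reads.

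**Figure D2:**
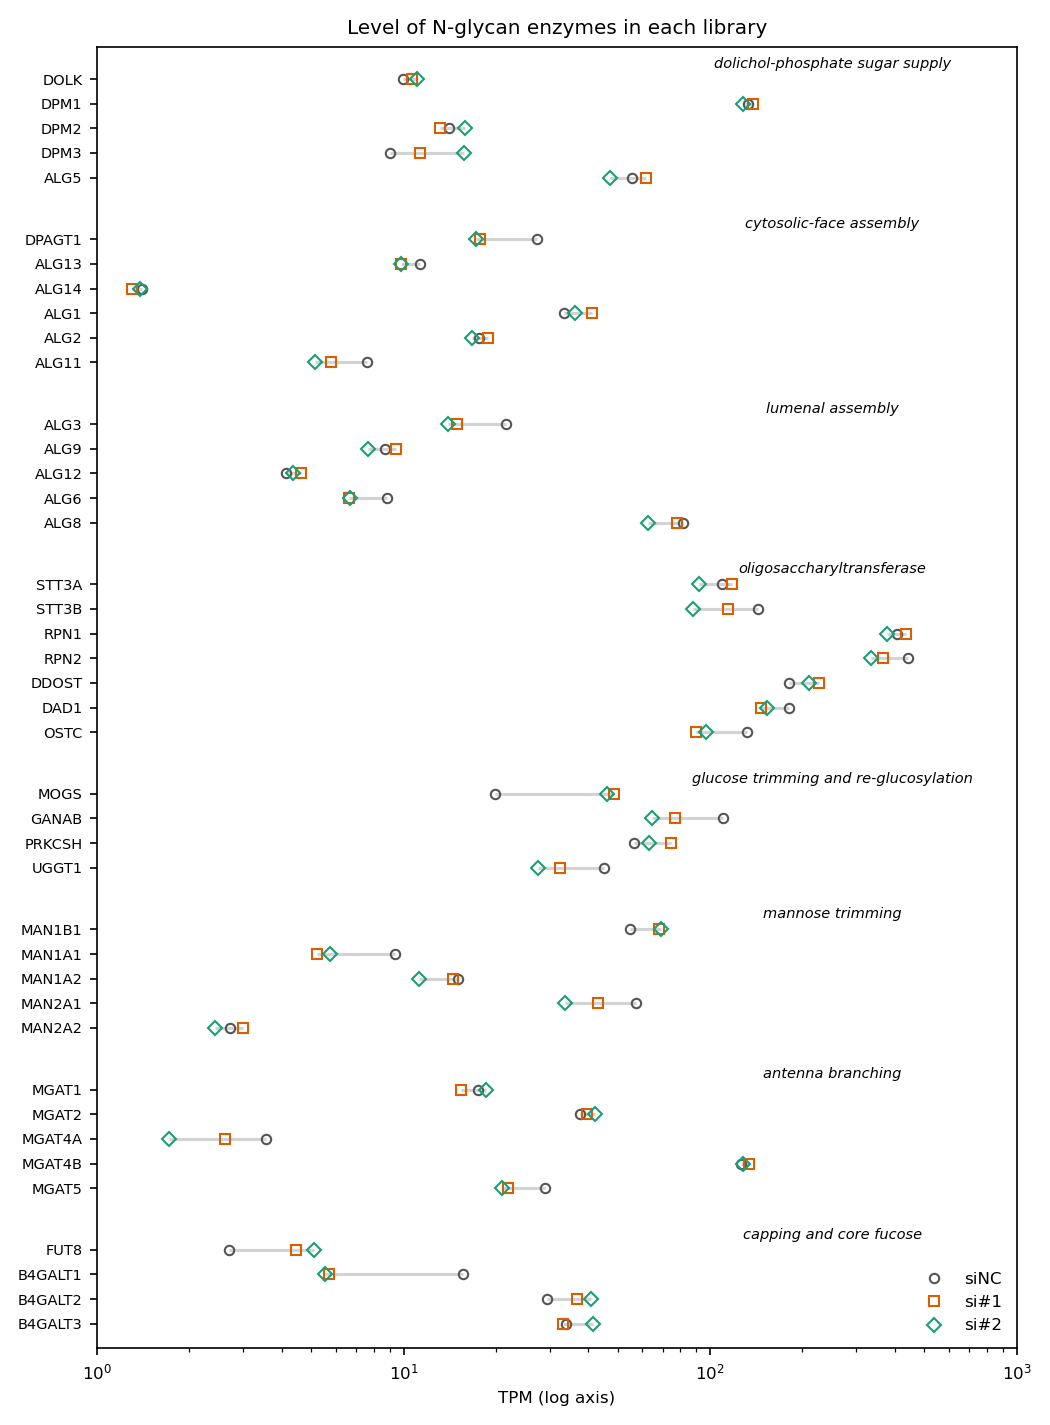
TPM of each of the 41 enzymes in the siNC (circle), si#1 (square) and si#2 (diamond) libraries on a log axis, grouped by step. The symbols lie far apart for MOGS (19.9, 48.6 and 46.1 TPM) and B4GALT1 (15.7, 5.69 and 5.56 TPM), and close together for DPM1 and MGAT4B.

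The start regions of B4GALT1 and FUT8 are shown because these genes passed 2-fold in opposite directions. They were searched for the short motifs that the study examined upstream of LINC00941, CGGAA for ETS-1 and CTTCC for ELK-1, factors that act downstream of MAPK. The windows are from RefSeq (GRCh38.p14), 250 bases before to 50 bases after an annotated start, read 5′ to 3′ on the strand of the gene. Capitals mark CGGAA or CTTCC on either strand, so that GGAAG is CTTCC read from the other strand, and CTTCCG holds both motifs.

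B4GALT1, chr9:33167110-33167409, minus strand: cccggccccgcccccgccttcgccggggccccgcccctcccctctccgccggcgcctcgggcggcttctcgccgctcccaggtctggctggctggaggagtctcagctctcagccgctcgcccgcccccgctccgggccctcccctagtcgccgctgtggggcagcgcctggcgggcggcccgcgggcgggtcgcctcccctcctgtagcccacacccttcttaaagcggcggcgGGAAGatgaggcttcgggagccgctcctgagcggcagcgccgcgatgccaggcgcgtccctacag
FUT8, chr14:65411613-65411912, plus strand: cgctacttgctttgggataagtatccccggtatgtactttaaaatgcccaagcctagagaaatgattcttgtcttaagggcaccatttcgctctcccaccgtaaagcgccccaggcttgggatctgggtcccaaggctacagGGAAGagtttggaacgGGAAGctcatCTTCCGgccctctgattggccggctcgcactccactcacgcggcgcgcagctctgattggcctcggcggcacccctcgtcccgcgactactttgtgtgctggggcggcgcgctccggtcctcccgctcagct

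The B4GALT1 window, 77.7% G and C, held no CGGAA, 1 CTTCC and 6 copies of the GC box GGGCGG on either strand. The second B4GALT1 window, which overlaps it, held no CGGAA and 2 CTTCC. The FUT8 window shown held 1 CGGAA and 3 CTTCC, the most of any FUT8 window. The 2 other FUT8 windows held no CGGAA, and 1 and 2 CTTCC. The printed windows alone are therefore no comparison of the genes. Of the 42 named enzymes 37 had a window, 63 windows in all, and windows of 1 gene can overlap. The 37 include ST6GAL1, which was not among the listed genes. MOGS, STT3B, RPN1, MAN1A2 and MGAT4A had none in the table used. CGGAA was present in 69.8% of the 63 windows, against 34.9% of all 35116 windows and 51.1% of the 13188 windows of protein-coding genes that averaged 100 reads or more. CTTCC was present in 77.8%, against 71.9% and 76.3%. The GC box was present in 63.5%, against 45.0% and 66.9%. These are counts of letters, with no evidence of binding.

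The ER stress response element, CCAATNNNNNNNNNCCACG, was searched on both strands because several genes of protein folding carry it. Among the enzymes it was found in the window of ALG12 alone, and in 27 of all 35116 windows (0.0769%). The site is shown with 5 bases on each side and the fixed ends of the motif in capitals. It starts 134 bases before the start of ALG12.

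ALG12, chr22:49918549-49918577, minus strand: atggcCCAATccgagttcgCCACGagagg

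ALG12, a mannosyltransferase of the ER lumen, had 1330 reads in siNC against 1683 (si#1) and 1638 (si#2). Changes on the log2 scale were 0.28 (0.17 to 0.38) and 0.29 (0.19 to 0.40), under 2-fold. CRELD2, which overlaps ALG12 on the opposite strand and is a known ER stress gene, had 1429, 1845 and 1917 reads and log2 fold changes of 0.29 and 0.41.

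The dolichol-phosphate step supplies the lipid and its activated sugars. DOLK, the dolichol kinase, had log2 fold changes of 0.22 (si#1) and 0.36 (si#2). DPM1, the catalytic subunit of dolichol-phosphate mannose synthase, had 0.20 and 0.21, but 0.05 and 0.03 from log2(TPM + 1). DPM2 and DPM3 stabilise that enzyme in the ER membrane. DPM2 had 0.03 (-0.08 to 0.14) and 0.39 (0.28 to 0.49). DPM3 had 254 reads in siNC against 348 (si#1) and 484 (si#2), and log2 fold changes of 0.38 (0.15 to 0.62) and 0.87 (0.65 to 1.10). Its si#2 library was the highest of the 3, and DPM3 was the enzyme with the fewest reads. ALG5, which makes dolichol-phosphate glucose, had 0.32 and 0.03. All 5 members of this step lay above 0 with each siRNA, with medians of 0.22 and 0.36, and none rose 2-fold. Over all listed genes 51.9% (si#1) and 51.5% (si#2) lay above 0. However, the value of ALG5 with si#2 turned to between -0.04 and -0.08 under TMM and the other scalings, and from log2(TPM + 1).

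On the cytosolic face of the ER the members spread to both sides of 0. DPAGT1, which starts the tree and is the target of tunicamycin, had 3141 reads in siNC against 2325 (si#1) and 2322 (si#2). Its log2 fold changes were -0.47 (-0.55 to -0.40) and -0.44 (-0.51 to -0.36). ALG13 and ALG14, which form the transferase of the next sugar, lay between -0.11 and 0.20. ALG14 had the lowest level of all the enzymes in siNC, 1.40 TPM. ALG1, which adds the first mannose, had 7850, 10957 and 9929 reads and log2 fold changes of 0.45 and 0.38. ALG2, which adds the mannoses after it, had 0.23 and 0.15. ALG11, which completes the cytosolic part, had -0.26 and -0.38. DPAGT1 and ALG11 thus lay below 0, and ALG1 and ALG2 above 0, in both siRNA libraries.

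In the ER lumen, ALG3 adds the first mannose and had log2 fold changes of -0.41 (-0.50 to -0.31) and -0.42 (-0.52 to -0.32). Its level was 21.6 TPM in siNC against 15.0 TPM (si#1) and 13.9 TPM (si#2). ALG9, which acts with ALG12, had 0.25 and 0.03, the latter -0.02 under TMM. The glucosyltransferases ALG6 and ALG8 act in turn. ALG6 had -0.30 (-0.40 to -0.20) and -0.19 (-0.29 to -0.09). ALG8 had 0.09 (0.04 to 0.13) and -0.13 (-0.17 to -0.08). The ALG8 value with si#1 was -0.03 from quantile-normalized log2(TPM + 1).

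The oligosaccharyltransferase held the enzymes with the highest levels, up to 442 TPM for RPN2 in siNC. STT3A and STT3B are its alternative catalytic subunits, of which STT3A acts as the protein enters the ER and STT3B on sites that were passed over. STT3A had 29897 reads in siNC against 36402 (si#1) and 29156 (si#2), and log2 fold changes of 0.23 (0.21 to 0.26) and 0.00 (-0.02 to 0.03). STT3B had 35507, 31970 and 25398 reads, and -0.20 (-0.23 to -0.18) and -0.47 (-0.49 to -0.44). The ratio of STT3A to STT3B in TPM was 0.765 in siNC against 1.04 (si#1) and 1.05 (si#2). STT3B thus had the higher level in siNC and STT3A in both siRNA libraries, by a small margin. The log2 of the read count ratio within a library was -0.25 (-0.27 to -0.23) in siNC. It was 0.19 (0.17 to 0.21) in the si#1 library and 0.20 (0.17 to 0.22) in the si#2 library. These count ratios are not corrected for transcript length, so their side of 0 does not show which level was higher. CHEK1 overlaps STT3A on the same strand, and had 13870, 11180 and 9994 reads.

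Of the subunits shared by both forms of the complex, DDOST had the highest value with each siRNA, with log2 fold changes of 0.41 and 0.45 and 23317, 32821 and 31344 reads. RPN1 had 0.17 and 0.06, and RPN2 had -0.19 and -0.24. DAD1 had -0.17 with si#1 and 0.00 with si#2. With si#2, RPN1 (-0.09), DAD1 (-0.13) and STT3A (-0.13) lay below 0 from log2(TPM + 1). OSTC, a subunit of the STT3A form, had -0.41 (-0.45 to -0.36) and -0.20 (-0.24 to -0.15). STT3A and OSTC, which belong to the same form, thus lay on opposite sides of 0 with si#1. None of the 7 subunits passed 2-fold, and all 7 stayed within 1.5-fold with both siRNAs. So did 60.6% of all listed genes and 71% of those averaging 100 reads or more.

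Among the mannosidases, MAN1B1, the ER mannosidase that marks misfolded glycoproteins for disposal, had 9013 reads in siNC against 12596 (si#1) and 13144 (si#2). Its log2 fold changes were 0.48 (0.44 to 0.52) and 0.58 (0.55 to 0.62). MAN1A1, a Golgi mannosidase I, had 2837, 1792 and 2026 reads, and -0.71 (-0.80 to -0.63) and -0.48 (-0.56 to -0.40). Its paralogue MAN1A2 had 0.09 and -0.18, and 7797, 8508 and 6782 reads. The ratio of MAN1A1 to MAN1A2 in TPM was 0.622 in siNC against 0.360 (si#1) and 0.510 (si#2). MAN2A1, the Golgi mannosidase II, had -0.30 and -0.54, with 24720, 20942 and 16771 reads. Its paralogue MAN2A2 had 0.30 (0.18 to 0.42) and 0.04 (-0.08 to 0.17). The ratio of MAN2A1 to MAN2A2 was 21.1, 14.4 and 13.8, so that MAN2A1 remained the main form in each library.

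The branching enzymes stayed under 2-fold, as did most listed genes. MGAT1 starts the first antenna and had log2 fold changes of 0.07 and 0.29, the former -0.04 from log2(TPM + 1). MGAT2 starts the next antenna and had 0.21 and 0.40. MGAT5, whose branch is known from invasive tumor cells, had 14895 reads in siNC against 12656 (si#1) and 12486 (si#2), and -0.25 (-0.28 to -0.21) and -0.22 (-0.26 to -0.19). MGAT4A and MGAT4B make the same branch. MGAT4A had 1810, 1502 and 1010 reads, and -0.33 (-0.43 to -0.23) and -0.86 (-0.97 to -0.74). MGAT4B had 19159, 21890 and 22036 reads, and 0.17 and 0.23. The ratio of MGAT4A to MGAT4B in TPM was 0.0283 in siNC against 0.0196 (si#1) and 0.0133 (si#2), so that MGAT4B provided most of these transcripts in each library.

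**Figure D3:**
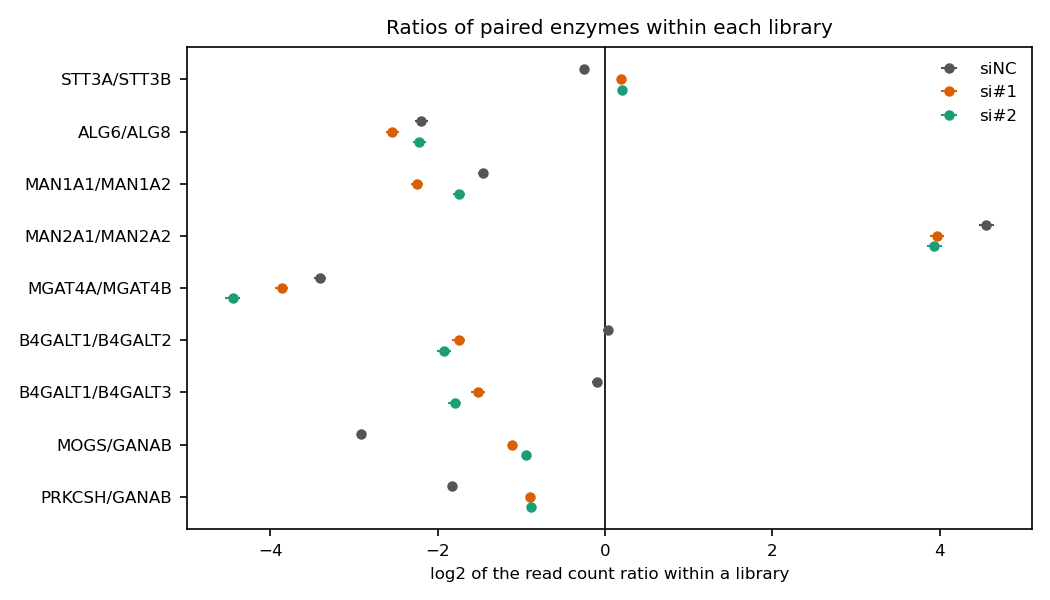
Log2 of the read count ratio of 9 enzyme pairs within each library (horizontal axis), with siNC in grey, si#1 in orange and si#2 in green; bars are 95% counting intervals. STT3A/STT3B lies below 0 in siNC (-0.25) and above 0 with si#1 (0.19) and si#2 (0.20), and B4GALT1/B4GALT2 lies at 0.04, -1.75 and -1.92. Read counts are not corrected for transcript length, so 0 does not mark equal levels. The ratio of B4GALT1 to B4GALT2 in siNC was 0.532 in TPM.

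The siRNAs were also set against each other. None of the 41 enzymes differed 2-fold between si#1 and si#2, against 8.23% of all listed genes. That share includes genes with a mean count down to 1 read, whereas the enzymes averaged at least 362. No share at a like depth was computed for this comparison. The difference of si#1 minus si#2 ran from -0.49 for DPM3 to 0.53 for MGAT4A. The value was lower with si#2 than with si#1 for ALG5 (0.29), MAN1A2 (0.27), STT3B (0.26) and MAN2A1 (0.24), and higher with si#2 for DPM2 (-0.36) and B4GALT3 (-0.35).

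Of 82 further gene symbols of the pathway that are no members, some of them alternative names of the same gene, 74 were listed. None rose with either siRNA, none fell with si#1, and GFPT1 and ALG10B fell with si#2. Over all listed genes 5.22% rose and 6.8% fell with si#1, and 5.49% rose and 7.17% fell with si#2. The median log2 fold change of the 74 genes was 0.04 with each siRNA and that of the members 0.09 and 0.04. GFPT1, the first enzyme of the hexosamine pathway that supplies N-acetylglucosamine, had 17002 reads in siNC against 14863 (si#1) and 7762 (si#2). Its log2 fold changes were -0.22 (-0.25 to -0.19) and -1.09 (-1.13 to -1.05), so that its low library was si#2. ALG10B, which adds the last glucose, had 1986, 1287 and 834 reads and -0.66 and -1.27. From quantile-normalized log2(TPM + 1) its value with si#2 was -0.81, under 2-fold. Its near-identical copy ALG10 had 1808, 1421 and 1311 reads and -0.40 with si#1, and reads of the pair are hard to assign.

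Genes that feed dolichol into the step had a median of -0.10 with si#1 and -0.03 with si#2, and the lowest value with si#1 was that of NUS1, a subunit of the enzyme that makes the dolichol chain. NUS1 had 6027 reads in siNC against 3225 (si#1) and 3345 (si#2), close to 2-fold with si#1 (-0.93). The 20 listed genes of sugar nucleotide supply had medians of 0.14 and 0.07, and the 9 Golgi transporters of these sugars -0.11 and -0.06. Among the transporters SLC35C1, which carries GDP-fucose, the donor used by FUT8, had 2892, 4890 and 4382 reads and a log2 fold change of 0.73 with si#1. SLC35A3, which carries UDP-N-acetylglucosamine, the donor of the MGAT enzymes, had 6549, 3780 and 4295 reads and -0.83 with si#1. The 5 other oligosaccharyltransferase subunits had medians of 0.05 and 0.14. The 5 genes of the mannose 6-phosphate tag had 0.10 and 0.04, and the 7 listed further branching, galactose and sialic acid enzymes had 0.03 and 0.03. The 5 listed other mannosidases had 0.36 and 0.53, with MANEA alone below 0.

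The 15 genes of the lectin folding cycle and of glycoprotein disposal read the glucose and mannose left by the members. Their medians were -0.08 and -0.18, and none passed 2-fold. Of all listed genes averaging 100 reads or more, 5.56% changed with si#1 and 6.47% with si#2. EDEM1, which sorts misfolded glycoproteins to disposal, had 7716, 5095 and 4333 reads in siNC, si#1 and si#2. CALR had 54139, 60554 and 56275 reads. The 10 genes of the unfolded protein response were counted apart, and had medians of -0.08 and -0.15. HSPA5, the main ER chaperone, had 23952 reads in siNC against 15752 (si#1) and 11139 (si#2), and fell with si#2 (-0.65 with si#1 and -1.09 with si#2). SYVN1, a ubiquitin ligase of ER disposal, had 943, 461 and 580 reads, and fell with si#1 (-1.07 with si#1 and -0.71 with si#2). DDIT3, a stress-induced factor, had 800, 949 and 1232 reads. The list thus held values on both sides of 0, and no gene of it passed 2-fold with both siRNAs. Over all listed genes 2.53% rose and 3.51% fell with both.

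**Figure D4:**
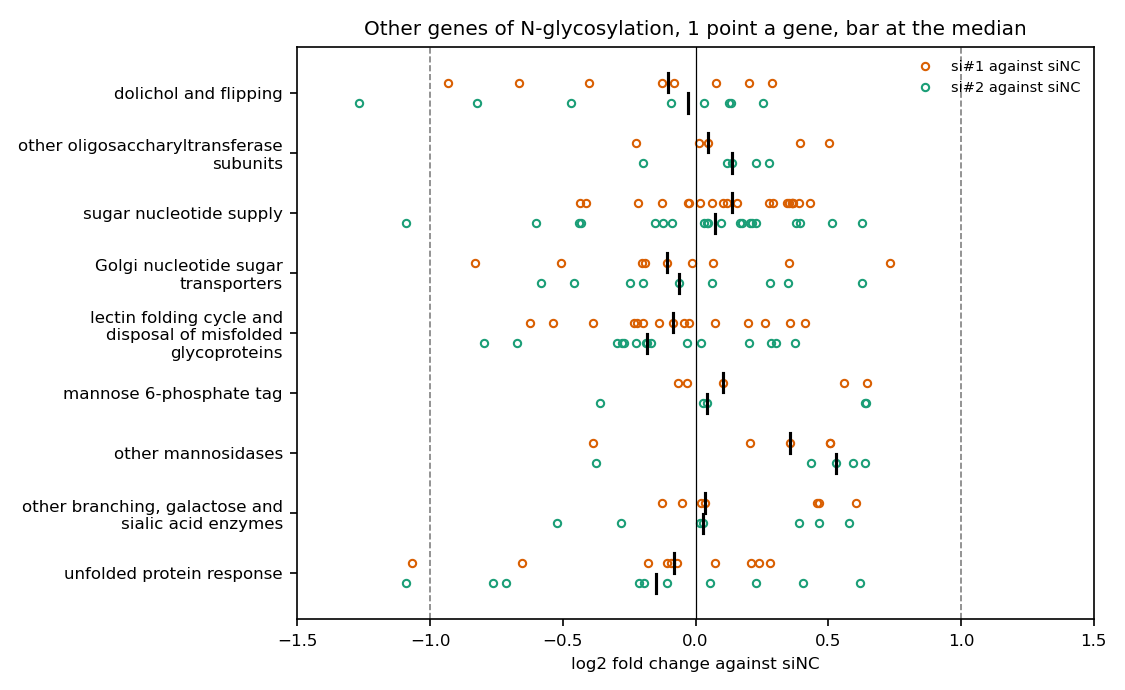
Log2 fold change against siNC (horizontal axis) of the listed genes of 9 further lists of N-glycosylation and ER stress, with si#1 in orange above si#2 in green; each circle is 1 gene, black bars are medians and dashed lines mark 2-fold. Circles past 2-fold are ALG10B, GFPT1 and HSPA5 with si#2 and SYVN1 with si#1, all on the low side.

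The changes varied with base composition. Over the 41 enzymes the correlation of the log2 fold change with the G and C content of the transcript was 0.36 with si#1 and 0.50 with si#2 (Pearson's r, a description across genes that share libraries). Over 11635 genes that averaged 100 reads or more and have an annotated transcript it was 0.31 and 0.46. The 19 enzymes with 50% or more G and C had medians of 0.22 and 0.36, and the 22 others -0.14 and -0.15. All genes at that depth showed medians of 0.20 and 0.28 at 50% or more G and C, and -0.06 and -0.13 under it. The median of the enzymes above and below 50% thus moved as that of other genes did, and the part of G and C content in the single values was not tested. MOGS has 61.1% G and C, FUT8 43.9% and B4GALT1 50.7%. With transcript length, on the log2 scale, the correlation over the enzymes was -0.16 and -0.33, and over the 11635 genes -0.27 and -0.30.

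**Figure D5:**
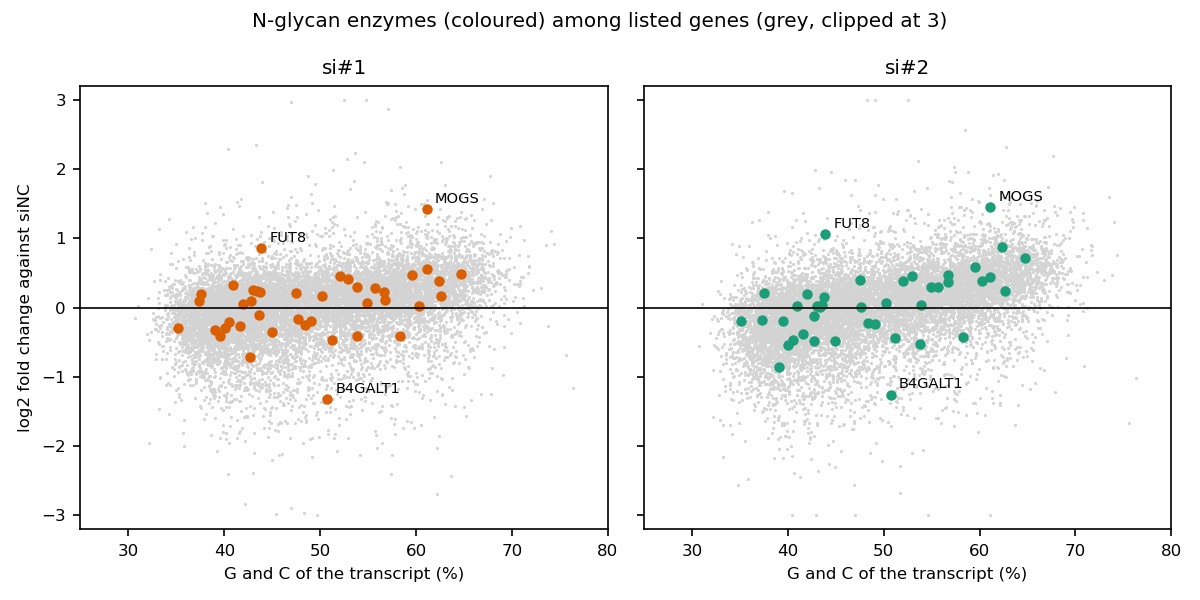
Log2 fold change against siNC (vertical axis) by the G and C content of the transcript in percent (horizontal axis) for si#1 (left) and si#2 (right), with the 41 enzymes coloured and other listed genes that averaged 100 reads or more in grey, values past 3 drawn at 3. Grey and coloured points are higher at higher G and C content, with MOGS (1.42 and 1.46) and FUT8 (0.86 and 1.06) above and B4GALT1 (-1.32 and -1.26) below the other coloured points.

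Of the 41 enzymes 14 overlap another listed gene, 5 of them on the same strand, where reads may be shared. Besides STT3A these are ALG11 with UTP14C, DDOST with PINK1-AS, MAN1A1 with RPL13AP15 and MGAT4B with MIR1229. The same-strand genes other than CHEK1 had at most 413 reads in a library. Some genes on the opposite strand had far more. SQSTM1 over MGAT4B had 59178, 76081 and 64069 reads, more than MGAT4B, and EXOSC8 over ALG5 had 6328, 7752 and 6974. NAGPA over ALG1 had 1981, 3209 and 3078 reads, with log2 fold changes of 0.65 and 0.64. As the use of the strand in counting is unknown, their part in the values of the enzymes was not tested.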

How the data were processed

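Total RNA of 3 AsPC-1 cultures (siNC, si#1 and si#2) was purified with RNeasy, prepared with the TruSeq Stranded Total RNA kit and sequenced by the authors, who aligned reads to GRCh38 with HISAT2 and used StringTie for known genes; the sources used here give no versions. Read counts and TPM values, both by the authors, come from the deposited table. Columns headed FPKM equal the read counts in all 16463 genes and were used only as such. The deposited log2 values, by the authors, come from quantile normalization of the logged read counts and were recomputed here to within 5e-09. The authors' fold changes and volumes were not used, nor were 15 per-sample columns of a second sheet that repeats 7 genes.

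Here, 1 was added to each read count before taking log2, quantile normalization ran over all listed genes, and 2-fold was the call. Each group is 1 library (88690997, 92510692 and 90867405 reads in siNC, si#1 and si#2), so no test was made. The normalization, calls and intervals were checked on data with known changes. Members passing 2-fold with at least 1 siRNA, or 1.5-fold with both, and fixed paralogue pairs were named by rule, as were genes outside the members past 2-fold with both. All other names, the 2 ratios with GANAB included, were chosen after their values were seen. The members and lists were chosen with earlier results of these data known. Coordinates and G and C content came from GENCODE 44, promoter windows from RefSeq. Alternatives were TMM (edgeR 4.0.16), DESeq2 1.42.0 size factors, total count, log2(TPM + 1), a pseudocount of 10, a mean of at least 100 reads, protein-coding genes alone and a 1.5-fold threshold, run under R 4.3.3 and Python 3.11.15 (scipy 1.17.1, pandas 2.3.3, numpy 2.4.6).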

Additional observations from a re-analysis of the deposited data

How the results depend on the processing

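No paired analysis was possible because each group is 1 library and the labels give no replicate number, and no library could be left out. A 1.5-fold threshold gave 2 enzymes that rose with si#1 (MOGS and FUT8), 2 that fell with si#1 (MAN1A1 and B4GALT1), 4 that rose with si#2 (DPM3, MOGS, FUT8 and B4GALT2), 2 that fell with si#2 (MGAT4A and B4GALT1) and 2 that rose with both (MOGS and FUT8). At this threshold 12.4% of all listed genes rose and 14.3% fell with si#1, 14.4% and 15.5% with si#2, and 7.45% rose with both. From quantile-normalized log2(TPM + 1), which shrinks the change of low genes, 1 enzyme rose with si#2 (MOGS), LINC00941 stood at -2.29 (si#1) and -2.07 (si#2), and ALG10B with si#2 (-0.81) and SYVN1 with si#1 (-0.75) lost 2-fold, as did FUT8 with si#2 (0.94). Under the other alternatives the counts of members past 2-fold did not differ from those reported. MOGS lay between 1.36 and 1.46 and B4GALT1 between -1.35 and -1.13 with either siRNA under every alternative run. Of 90 named log2 fold changes, 4 differed in sign under TMM, DESeq2 size factors and total count each (ALG5, ALG9, DAD1 and STT3A with si#2), and 6 from log2(TPM + 1), namely ALG5, DAD1, RPN1 and STT3A with si#2 and ALG8 and MGAT1 with si#1. Over all genes 416 rose and 578 fell with both siRNAs, 47 and 144 from log2(TPM + 1), 337 and 641 under TMM, 339 and 638 with DESeq2 size factors, 339 and 645 by total count, 189 and 387 with a pseudocount of 10, 119 and 268 where genes averaged 100 reads or more, 209 and 335 among protein-coding genes and 1227 and 1447 at 1.5-fold. The background shares move with these counts, whereas all 41 enzymes lie above the filter of 100 reads. The depth limits DPM3, FUT8 and ALG14 most. Differences between cultures, transfections and library preparations cannot be told apart from those of the siRNAs.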
